A study of Mus musculus with 17 samples.

Results

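The Iroquois homeobox genes, Irx1 to Irx6, were followed through expression profiles of microdissected mammary tumors from CUX1 transgenic mice. The family was selected on the values of Irx2, which were lower in the tumors the study grouped as high-Wnt, and its probes were taken by the gene name or the RefSeq accession on the array. This led to 9 probes for 6 genes, out of 41174 probes and 28576 genes with a value in every tumor. Irx genes encode transcription factors with a homeodomain of the TALE class and a conserved motif called the Iro box. They lie in a pair of genomic clusters, IrxA (Irx1, Irx2 and Irx4) and IrxB (Irx3, Irx5 and Irx6), whose neighbors are often expressed in overlapping domains of the embryo. The family is known for patterning the heart, lung, kidney, limb and nervous system, and Irx2 transcripts have been described in the epithelium of the mammary gland.

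The arrays held 17 tumors, each from a different mouse of the FVB strain. Of these, 9 came from mice carrying the p75 isoform of CUX1, a homeodomain transcription factor, and 8 from mice carrying its p110 isoform, both driven by the MMTV promoter, which is active in mammary epithelium. No tumor without a CUX1 transgene and no normal gland was among the arrays analyzed here, the ages of the mice are not given in the sources used here, and each tumor stands for 1 mouse. By histology, 9 tumors were solid carcinomas, 4 adenosquamous carcinomas, 2 adenomyoepitheliomas, 1 an adenocarcinoma and 1 an adenoma, and all 4 adenosquamous carcinomas carried p75. The study also drew clusters from the expression of Wnt genes on these arrays, with 5 tumors in the high-Wnt, 5 in the medium-Wnt and 7 in the low-Wnt cluster. Every value below is the log2 ratio of tumor over a common mouse reference RNA, so that 0 marks an equal signal in both and positive values a stronger signal in the tumor. In tissue RNA of this kind, a lower proportion of cells with a transcript and less of it per cell cannot be told apart.

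RNA was amplified in 2 rounds and hybridized on 38 two-color arrays, with 2 arrays of swapped dyes for most tumors and 4 for p110-143 and p110-360. The share of probes with a tumor signal well above background on all arrays of a tumor ran from 18.3% to 61.9%. The tumor p110-121, a solid carcinoma, stood apart from the rest and went against its label of epithelial cells. Its 6 epithelial markers averaged -2.21, with 3 of them above background, against 0.94 to 3.15 in the other tumors, and the keratin Krt8 was at -4.24. Its 6 immune markers averaged 1.39, with 5 above background, against -1.48 to -0.33 elsewhere. It held the lowest value of all tumors for 17.5% of the 9477 genes measured in at least 12 tumors, where the other tumors held 1.83% to 9.72%. The main member differences and correlations are therefore also given without p110-121, whereas the TALE and neighboring genes are given over all tumors only. The p75 and the p110 arrays were scanned in different years, so that transgene and scan year cannot be told apart.

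The probes of the family were first compared by whether they were measured at all, meaning a tumor signal well above background on all arrays of that tumor. Irx1 and Irx2 each had a probe that was measured in 0 of 17 tumors beside a probe measured in nearly all, and the sequences of the silent probes are shown here because they set how the values of these genes can be read.
Irx1 A_51_P149868: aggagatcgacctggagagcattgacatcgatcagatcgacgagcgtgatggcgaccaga
Irx2 A_52_P635312: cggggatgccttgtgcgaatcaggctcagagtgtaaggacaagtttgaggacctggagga
The Irx1 probe above lies on the minus strand at chr13:68889116-68889175 of the mm7 build, 1567 bases upstream, in the direction of transcription, of the other Irx1 probe, A_52_P1092823 (chr13:68887509-68887548). The latter was measured in 17 of 17 tumors. It was designed on the cDNA AK133937, not on the RefSeq transcript, and its annotated position covers 40 of its 60 bases. The silent Irx2 probe lies on the plus strand at chr13:69562330-69562389, 2053 bases upstream of A_52_P398122 (chr13:69564443-69564502), the brightest Irx2 probe, which was measured in 16 tumors. Between them, A_51_P320281 was measured in 15 tumors, and its position spans 662 bases (chr13:69563624-69564285) for a 60-base probe. Thus on both genes the probe nearer the start of the transcript was silent and the probes nearer its end were measured. A probe at background gives no level, so these genes are described by their measured probes, and the cause of the difference between probes was not tested.

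The remaining members had a single probe each. Irx4, a gene best known from the ventricles of the heart, was measured in 14 tumors (A_51_P412508, chr13:70200755-70200814), and Irx5, which shapes the repolarization gradient of the heart, in 16 (A_51_P410681, chr8:90954274-90954333). Irx3 was measured in 0 tumors (A_51_P518757, chr8:90391564-90391623), and its log2 ratio stayed between -0.09 and 0.28. Irx6 was measured in 5 tumors (A_51_P347859, chr8:91273231-91273290), with log2 ratios of -0.01 to 0.38. The reference RNA also differed between probes. Its color was well above background on 38 of 38 arrays for the measured probe of Irx1 and for Irx5, on 36 for Irx4 and on 31 for Irx2 A_52_P398122, but on 6 for Irx2 A_51_P320281 and on 0 for Irx3. A ratio of the second Irx2 probe therefore rests on a reference signal near background on most arrays. Irx1, Irx2, Irx4 and Irx5 could be compared between tumors, whereas Irx3 and Irx6 are given by their counts and ranges only.

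**Figure D1:**
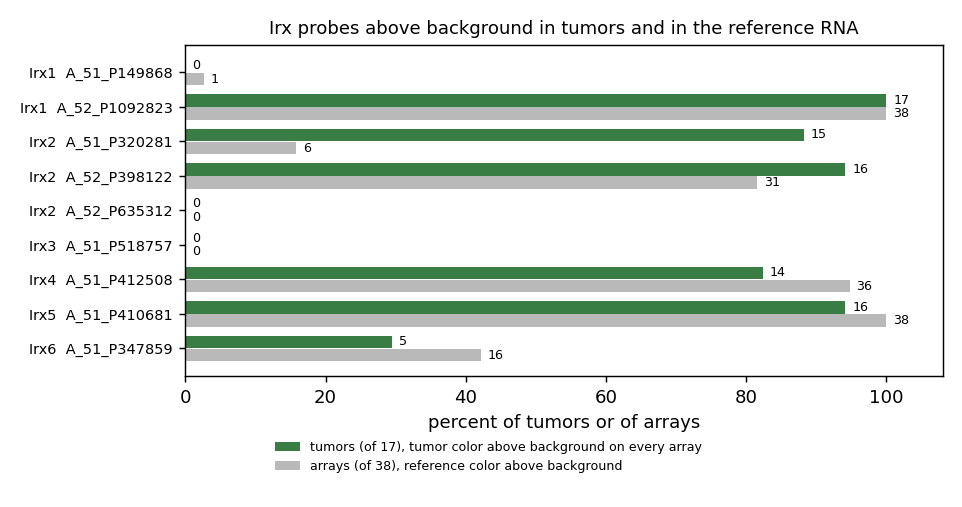
For each of the 9 Irx probes, bars show the percent of the 17 tumors in which the tumor color was above background on every array and the percent of the 38 arrays on which the reference color was, with the counts printed beside them. Irx1 A_51_P149868, Irx2 A_52_P635312 and Irx3 A_51_P518757 were measured in 0 tumors.

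Irx1, known from lung and nephron development, was far above the reference in nearly all tumors. Its lowest, median and highest log2 ratios were -1.23, 5.32 and 6.04 over the 17 tumors, and the lowest value belonged to p110-121. The other 16 tumors lay between 3.34 (p75-94) and 6.04 (p75-216), with a mean of 5.18 ± 0.69 (SD, n = 16). Irx2 reached -0.42 in p110-121, where it was not above background, and 1.09 to 4.86 in the others, with a mean of 2.84 ± 1.25 (SD, n = 16). Irx5 was -0.38 and not above background in p110-121, and 1.0 to 2.79 in the others, with a mean of 2.10 ± 0.53 (SD, n = 16). Hence these 3 members were at their lowest in the same tumor.

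Irx4 behaved differently, since its low values were spread over several tumors. It ranged from -0.19 to 4.28, with a mean of 1.98 ± 1.35 (SD, n = 17), and it was not measured in p110-121 (0.10), p110-225 (0.63) or p110-416 (-0.13). The lowest value, -0.19 in p110-314, came from a signal well above background, close to that of the reference. All 9 p75 tumors had Irx4 above background. Counted over transgenes, the p110 tumors with Irx4 above background were 5 of 8. The 8 basal and myoepithelial markers, which include Krt5, Krt14 and Trp63, averaged -0.09 in p110-314, -0.31 in p110-416 and 0.24 in p110-121, the tumors with the lowest Irx4, and 2.36 or more in all other tumors, including 3.70 in p110-225, where Irx4 was not measured. Of these markers, 8, 6 and 3 were measured in p110-314, p110-416 and p110-121. Myh11, a smooth muscle myosin of this list, was at 3.43 in p110-121, above its mean of 1.83 over all tumors. Among the other tumors, the highest Irx4 (4.28 in p75-94) came with a marker mean of 2.63, and the highest marker mean (4.62 in p110-374) with Irx4 at 2.21. The part of these markers in the Irx4 values was not tested.

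**Figure D2:**
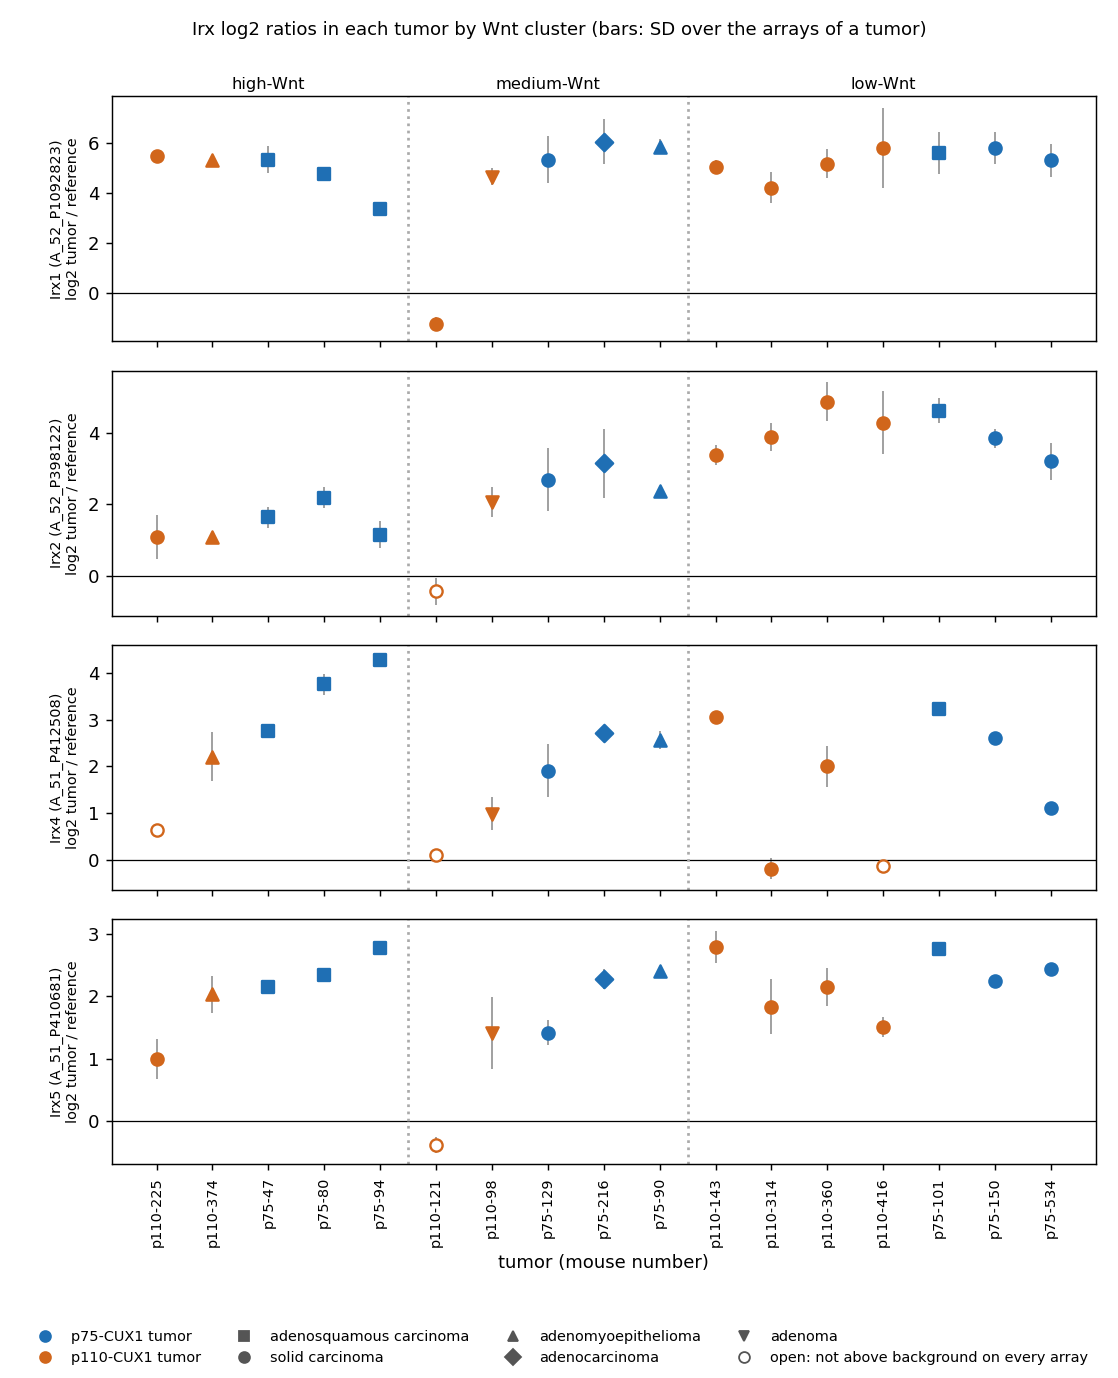
Each panel plots the log2 ratio of tumor over reference of an Irx gene (vertical axis, brightest probe) in the 17 tumors (horizontal axis), ordered by Wnt cluster, with colors for transgene, symbols for histology, bars for the SD over the arrays of a tumor and open symbols where the probe was not above background on every array. Irx1, Irx2 and Irx5 are lowest in p110-121, at -1.23, -0.42 and -0.38, and Irx2 of the low-Wnt tumors, 3.20 to 4.86, lies above that of the high-Wnt tumors, 1.09 to 2.19.

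How the family varied with the Wnt clusters was then described, without a test, since Irx2 had been picked for its fall in high-Wnt tumors and every value of this contrast counts as used. In the 5 high-Wnt tumors, the log2 ratio of Irx2 was 1.09 (p110-225), 1.09 (p110-374), 1.16 (p75-94), 1.64 (p75-47) and 2.19 (p75-80). In the 7 low-Wnt tumors, it was 3.20 at the lowest, 3.88 at the median and 4.86 at the highest. The groups did not overlap, as was the case for 0.7% of all genes in this direction, and their means of 1.43 ± 0.48 (SD, n = 5) and 4.00 ± 0.62 (SD, n = 7) differed by -2.57. Medium-Wnt tumors were at -0.42 (p110-121), 2.07 (p110-98), 2.38 (p75-90), 2.69 (p75-129) and 3.15 (p75-216). They all lay below the low-Wnt tumors, as was the case for 0.266% of all genes, and the nearest values were 3.15 and 3.20. Since the low-Wnt values had been used to choose Irx2, this share does not measure how rare the split is. Of the medium-Wnt tumors, 3 lay above all high-Wnt tumors.

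The split was less clear with the other probe of Irx2. With A_51_P320281, the high-Wnt tumors were at 1.19 (p75-94), 1.53 (p110-225), 1.54 (p75-80), 2.10 (p75-47) and 2.86 (p110-374), and the low-Wnt tumors at 2.15, 3.06 and 3.83 (lowest, median and highest). These groups overlapped, through p110-374, and their means differed by -1.17. The tumor with the highest value of this probe, p75-90 at 4.31, was a medium-Wnt tumor with 2.38 on the brightest probe. With A_51_P320281, the medium-Wnt and low-Wnt tumors therefore overlapped. The probes thus gave the same direction but a different order of tumors. In the tumor color without the reference, the high-Wnt minus low-Wnt difference of the brightest probe was -1.563.

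**Figure D3:**
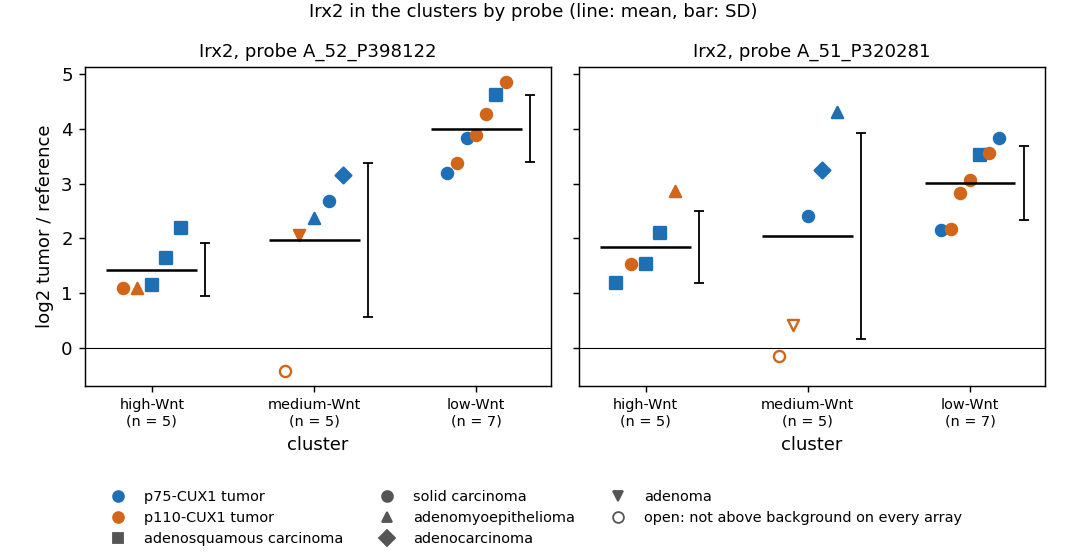
The log2 ratio of tumor over reference of Irx2 (vertical axis) is plotted by cluster for its 2 measured probes, with symbols for histology, colors for transgene, a line at the mean and a bar for the SD. With A_52_P398122 the high-Wnt and low-Wnt tumors do not overlap (1.09 to 2.19 and 3.20 to 4.86), and with A_51_P320281 they do.

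Among p75 tumors, Irx2 had a mean of 1.66 ± 0.52 (SD, n = 3) in the high-Wnt cluster and of 3.88 ± 0.71 (SD, n = 3) in the low-Wnt cluster, with no overlap, a separation found for 7.4% of all genes. Among p110 tumors, it was 1.09 in both tumors of the high-Wnt cluster and 4.10 ± 0.63 (SD, n = 4) in the low-Wnt cluster. Here 12.1% of all genes were separated in this direction. Both separations on this probe follow from that of the whole clusters, so these shares add no support of their own. The low-Wnt solid carcinomas and the low-Wnt adenosquamous carcinoma, p75-101 (4.61), were all in the upper range, and the high-Wnt solid carcinoma p110-225 was at 1.09. The high-Wnt minus low-Wnt difference of Irx2 was thus -2.22 in p75 and -3.01 in p110 tumors. With the other measured probe, it was -1.55 in p75 and -0.70 in p110 tumors, where the clusters overlapped, so the order of the transgenes depended on the probe. Marker lists of several cell types had shifted medians but overlapping ranges between these clusters. The 7 luminal and hormone receptor markers averaged 1.18, 2.12 and 3.08 (lowest, median and highest) in the high-Wnt tumors, with 4 to 5 of them measured, and 2.50, 2.61 and 3.27 in the low-Wnt tumors, with 5 to 6 measured. The 5 endothelial markers averaged 0.33, 0.99 and 2.06 in the high-Wnt and 1.12, 1.64 and 2.95 in the low-Wnt tumors. The 4 adipocyte markers averaged 0.84, 1.86 and 5.62 in the high-Wnt and 0.66, 4.40 and 5.55 in the low-Wnt tumors, and the 8 squamous markers 0.00, 0.36 and 2.66 against -0.13, -0.03 and 0.07. The 8 basal and myoepithelial markers averaged 2.63, 3.70 and 4.62 in the high-Wnt and -0.31, 3.1 and 3.28 in the low-Wnt tumors. The part of these markers in the Irx2 values was not tested.

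The other members overlapped between high-Wnt and low-Wnt tumors. Irx1 averaged 4.84 ± 0.88 (SD, n = 5) against 5.27 ± 0.56 (SD, n = 7), and the difference of -0.43 was -0.05 without p75-94. It was -1.091 among p75 and 0.349 among p110 tumors, -1.345 with median centering and 0.048 with the tumor in Cy3. For Irx5 the means were 2.06 ± 0.66 (SD, n = 5) against 2.25 ± 0.47 (SD, n = 7), and the difference of -0.19 turned to 0.08 without p110-225, 0.05 with Feature Extraction signals and 0.30 in the tumor color without the reference. Irx4 went the other way, with 2.73 ± 1.43 (SD, n = 5) against 1.67 ± 1.43 (SD, n = 7). The gap of 1.06 did not reach the SD of either cluster and was 0.67 without p75-94 and 1.59 without p110-225. It was 1.29 among p75 and 0.24 among p110 tumors. The low-Wnt cluster holds p110-314 and p110-416, with basal marker means of -0.09 and -0.31, and the part of these markers in the Irx4 gap was not tested. Irx6 was measured in 2 of 5 high-Wnt and 2 of 7 low-Wnt tumors.

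The next comparison asked whether the family differs between adenosquamous and solid carcinomas, the types with more than 2 tumors. This contrast is not independent of the clusters, since 3 of 4 adenosquamous carcinomas were high-Wnt and 6 of 9 solid carcinomas low-Wnt. For Irx4, the adenosquamous carcinomas had log2 ratios of 2.76 (p75-47), 3.22 (p75-101), 3.76 (p75-80) and 4.28 (p75-94). The solid carcinomas were at -0.19, 1.12 and 3.05 (lowest, median and highest), with 6 of 9 measured, and they include all 3 tumors with low basal markers. Of the solid carcinomas, only p110-143, at 3.05, reached into the range of the adenosquamous carcinomas. The means of 3.50 ± 0.66 (SD, n = 4) and 1.23 ± 1.21 (SD, n = 9) differed by 2.27 ± 0.60 (SE), which passed an exact two-sided permutation test of this gene alone (p = 0.00699) but not the limma test adjusted over all genes (adjusted p = 0.786). At that threshold 0% of all genes were called, with 1575 of the 28576 genes at an unadjusted limma p under 0.05. Without p110-121, the Irx4 difference was 2.13 (exact permutation p = 0.0101, limma adjusted p = 0.854).

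All adenosquamous carcinomas carried p75, so the comparison was repeated among p75 tumors. The 3 solid p75 carcinomas had Irx4 at 1.12 (p75-534), 1.91 (p75-129) and 2.60 (p75-150), all below the 4 adenosquamous carcinomas. Separation in this direction was found for 2.32% of all genes among these 7 tumors. The difference was 1.63 (exact two-sided permutation p = 0.0571, where 0.0286 is 1 of 35 splits). Markers of squamous differentiation averaged 0.00, 0.06, 1.13 and 2.66 in the adenosquamous carcinomas p75-47, p75-101, p75-94 and p75-80, and -0.13 to 0.30 in the solid carcinomas. The 2 adenosquamous carcinomas with raised squamous markers were also the ones with the highest Irx4, and the part of these markers in the Irx4 values was not tested.

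For the other members, the histological types overlapped and 0 of 4 compared members passed. Irx5 was 2.15 (p75-47), 2.34 (p75-80), 2.76 (p75-101) and 2.77 (p75-94) in adenosquamous carcinomas and -0.38, 1.83 and 2.79 (lowest, median and highest) in solid carcinomas. The Irx5 difference was 0.84 ± 0.46 (SE; limma adjusted p = 0.875) and 0.58 without p110-121 (limma adjusted p = 0.866). Irx2 was 1.16, 1.64, 2.19 and, in p75-101, 4.61 in adenosquamous carcinomas and -0.42, 3.37 and 4.86 (lowest, median and highest) in solid carcinomas (difference -0.58 ± 0.91 (SE), limma adjusted p = 0.927; -1.003 without p110-121, -1.32 without p75-101, -0.33 without p75-47 and -0.16 without p75-94). The Irx2 difference was -0.29 with the other measured probe and turned to 0.12 with Feature Extraction signals. The Irx1 difference was 0.21 ± 1.08 (SE; limma adjusted p = 0.981) and turned to -0.52 without p110-121 (limma adjusted p = 0.866). The 2 adenomyoepitheliomas, tumors with a myoepithelial component, had Irx4 at 2.21 (p110-374) and 2.57 (p75-90) and Irx5 at 2.03 and 2.41. The adenocarcinoma p75-216 held the highest Irx1, 6.04, and the adenoma p110-98 had Irx4 at 0.99.

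**Figure D4:**
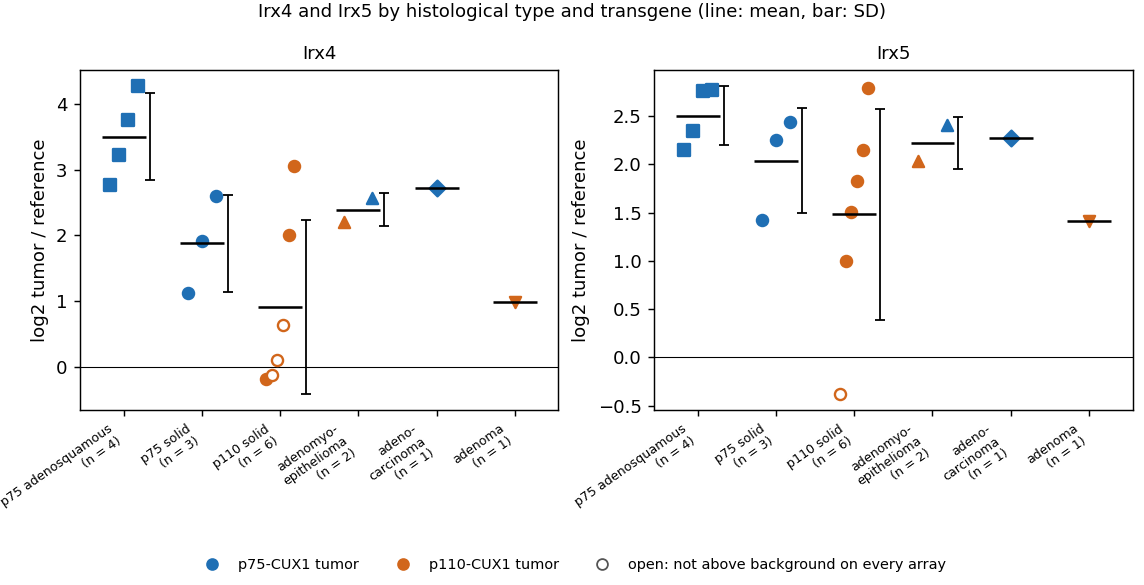
The log2 ratios of Irx4 (left) and Irx5 (right) are plotted by histological type, with adenosquamous and solid carcinomas also split by transgene, a line at the mean and a bar for the SD. The 4 adenosquamous carcinomas have Irx4 at 2.76 to 4.28, above the 3 solid p75 carcinomas, and p110 solid carcinomas spread from -0.19 to 3.05.

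The p75 and p110 tumors were compared next. Irx4 was 1.12, 2.72 and 4.28 (lowest, median and highest) in the 9 p75 tumors and -0.19, 0.81 and 3.05 in the 8 p110 tumors. The means of 2.77 ± 0.94 (SD, n = 9) and 1.08 ± 1.21 (SD, n = 8) differed by 1.69 ± 0.50 (SE). The 3 tumors with low basal markers were all p110 tumors. The groups overlapped, and the difference passed an exact two-sided permutation test of this gene alone (p = 0.00683) but not the limma test over all genes (adjusted p = 0.134). Irx5 was 1.42, 2.34 and 2.77 in p75 and -0.38, 1.67 and 2.79 in p110 tumors, a difference of 0.77 ± 0.33 (SE; exact two-sided permutation p = 0.0278, limma adjusted p = 0.312). None of the 4 compared members passed the limma test, which called 0.434% of all genes, 124 of 28576, with 3871 at an unadjusted p under 0.05 (77 and 3573 without p110-121). With the median of each array centered in place of loess, Irx4 (2.02, limma adjusted p = 0.0233) and Irx5 (1.48, limma adjusted p = 0.0469) did pass, and 1195 genes were called.

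The Irx4 and Irx5 differences were smaller without p110-121 and among solid carcinomas alone. The part of that tumor or of histology in them was not tested. Without p110-121, the p75 minus p110 difference was 1.55 for Irx4 (exact permutation p = 0.0138, limma adjusted p = 0.219) and 0.50 for Irx5 (exact permutation p = 0.0636, limma adjusted p = 0.405). Among solid carcinomas, Irx4 was 1.88 ± 0.74 (SD, n = 3) in p75 and 0.91 ± 1.33 (SD, n = 6) in p110 tumors, and the gap of 0.97 did not reach the SD of the p110 tumors (exact two-sided permutation p = 0.274). Irx5 among solid carcinomas differed by 0.55 (exact two-sided permutation p = 0.476). Without p110-121, these differences among solid carcinomas were 0.80 for Irx4 (exact permutation p = 0.393) and 0.18 for Irx5 (exact permutation p = 0.714). For Irx2, the p75 and p110 tumors had means of 2.76 ± 1.07 (SD, n = 9) and 2.53 ± 1.85 (SD, n = 8) and a difference of 0.23 (limma adjusted p = 0.917) that turned to -0.19 without p110-121 (limma adjusted p = 0.933). The other measured Irx2 probe gave a difference of 0.67 (0.36 without p110-121) and the Feature Extraction signals of the brightest probe 0.84. Irx1 differed by 0.95 with p110-121 (limma adjusted p = 0.644) and by 0.16 without it (limma adjusted p = 0.887). With median centering over all tumors, the Irx1 difference was 2.245 (limma adjusted p = 0.101).

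Whether members rise and fall together was examined over the tumors for the 6 pairs among Irx1, Irx2, Irx4 and Irx5. Irx4 and Irx5, which lie in different genomic clusters, had a Pearson r of 0.72 (permutation p = 0.00035, adjusted 0.0021) and a Spearman rho of 0.78 (permutation p = 0.00029, adjusted 0.00174) over 17 tumors. Without p110-121, r was 0.74 (permutation p = 0.0011, adjusted 0.0066) and rho 0.77 (permutation p = 0.00084, adjusted 0.00504), and r was 0.81 without p110-314 and p110-416, the tumors farthest from the median of Irx4. Within p75 tumors r was 0.50 (exact permutation p = 0.172, n = 9) and rho 0.38 (p = 0.312), and within p110 tumors r was 0.67 (exact permutation p = 0.0582, n = 8) and rho 0.60 (p = 0.132), with an r of 0.75 without p110-121 (exact permutation p = 0.0502, n = 7). Without the 2 tumors farthest from the median of Irx4 in each transgene, r was 0.72 within p75 and 0.40 within p110 tumors. It was 0.36 within p110 tumors when p110-121 was also left out. The relation had the same sign within each transgene but did not pass there on its own.

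The other pairs changed more without p110-121. Irx2 had been chosen on its values in these tumors. The p-values of its correlations, here and with the share of probes below, are therefore descriptive. For Irx1 and Irx2, r was 0.60 (permutation p = 0.00748, adjusted 0.0224) over 17 tumors but 0.07 without p75-94 and p110-121, and rho was 0.31 (permutation p = 0.218, adjusted 0.439). Irx1 with Irx5 gave an r of 0.66 (permutation p = 0.0414, adjusted 0.0621) and a rho of 0.10 (permutation p = 0.696, adjusted 0.936), and Irx2 with Irx5 an r of 0.52 (permutation p = 0.0278, adjusted 0.0556) and a rho of 0.31 (permutation p = 0.22, adjusted 0.439). Without p110-121, these r values were 0.30, -0.16 and 0.20, with adjusted permutation p of 0.57 each. Within p75 and p110 tumors, r was 0.65 and 0.61 for Irx1 with Irx2, -0.32 and 0.78 for Irx1 with Irx5, and 0.07 and 0.70 for Irx2 with Irx5, and in p110 tumors without p110-121 it was -0.11, -0.18 and 0.40. Irx2 and Irx4, neighbors in the IrxA cluster, had an r of 0.02 (permutation p = 0.94, adjusted 0.94) and a rho of -0.02 (permutation p = 0.936, adjusted 0.936) over 17 tumors, and an r of -0.22 (permutation p = 0.4, adjusted 0.57) without p110-121. Irx1 and Irx4 had an r of 0.26 (permutation p = 0.337, adjusted 0.405) and a rho of 0.07 (permutation p = 0.78, adjusted 0.936), and r turned to -0.17 (permutation p = 0.534, adjusted 0.57) without p110-121. Within p75 and p110 tumors, r was -0.60 and 0.34 for Irx1 with Irx4 and -0.37 and 0.12 for Irx2 with Irx4, and in p110 tumors without p110-121 it was 0.09 and -0.12.

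**Figure D5:**
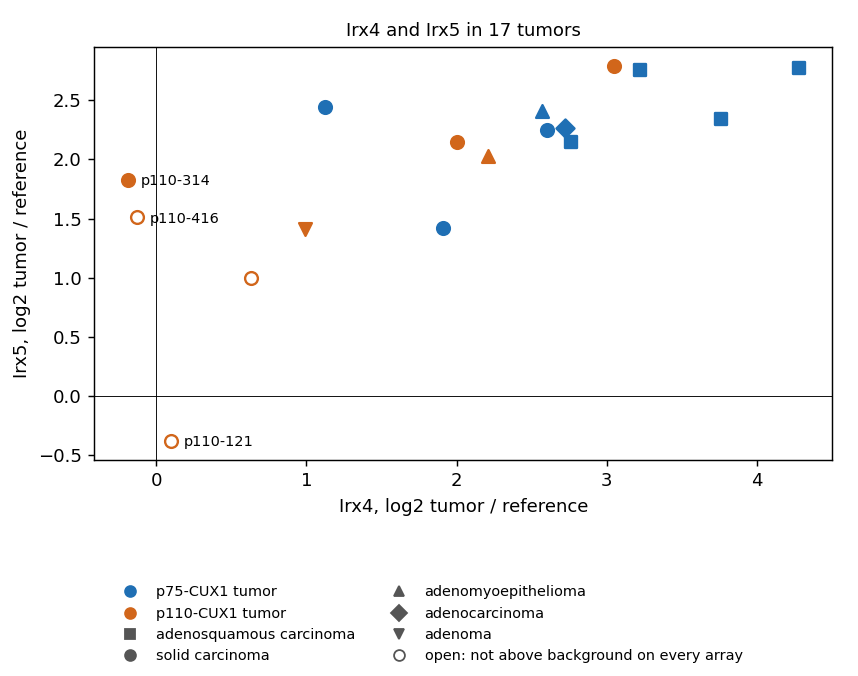
The log2 ratio of Irx5 (vertical axis) is plotted against that of Irx4 (horizontal axis) for the 17 tumors, with colors for transgene, symbols for histology and open symbols where either gene was not above background on every array. Pearson r was 0.72 over all tumors and 0.74 without p110-121, which lies alone at the bottom.

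The genes most like each member were ranked by Pearson r over the 17 tumors among 9476 other genes measured in at least 12 tumors, as a description. Nearest to Irx4 were Trim29 (r = 0.88), Trp63 (0.85), the transcription factor that maintains basal epithelial cells, Ttc39c (0.84), Rab10 (0.82) and Smg1 (0.82), and farthest Pop7 (-0.78), Mrps26 (-0.75) and Nodal (-0.73). Without p110-121, Trim29 (0.86), Ttc39c (0.84) and Trp63 (0.82) were still among the nearest 5, and Sfrp2, which encodes a secreted Wnt antagonist, was among the farthest 3 (-0.77). Nearest to Irx2 were Kcnk1, a potassium channel (0.95), the transcript ENSMUST00000067474 (0.93), Map1lc3b (0.92), Vdr, the vitamin D receptor (0.92), and Igsf5 (0.91), and farthest ENSMUST00000016768 (-0.90), Actb (-0.87) and 2310043J07Rik (-0.86). Kcnk1 stayed nearest without p110-121 (0.93).

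For Irx1 and Irx5 the ranking was more dependent on p110-121. Nearest to Irx1 were ENSMUST00000030142 (0.99), Plet1 (0.97), Slc28a3 (0.96), BC038907 (0.95) and Echdc2 (0.95), and farthest A630082K20Rik (-0.91), Ms4a6d (-0.90) and Picalm (-0.90). Plet1 was at -0.38 in p110-121 and 7.13 to 9.41 elsewhere, and Ms4a6d at 5.32 there and -0.38 to 2.05 elsewhere. Without p110-121, ENSMUST00000030142 (0.91) and Plet1 (0.84) were still among the nearest 5 of Irx1, and the farthest was Camsap1l1 (-0.80). Nearest to Irx5 were Lsr, a component of tricellular junctions (0.91), Sc5d (0.89), Kctd1 (0.88), Ptprk (0.87) and 4732474O15Rik (0.86), and farthest Rac2, a GTPase of blood cells (-0.86), Hexa (-0.85) and Card19 (-0.85). Without p110-121, 0 of these 8 genes of Irx5 were left among its nearest 5 or farthest 3, which were then led by Dync1h1 (0.83) and Hsd3b4 (-0.80).

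The related TALE homeobox genes outside the family, of the Meis, Pbx, Pknox, Tgif and Mkx groups, served for comparison. Meis and Pbx proteins are partners of Hox proteins, and Tgif proteins are repressors. Of 12 such genes, 12 were tested and 2 were measured in all tumors, Pknox2 (mean 0.58) and Tgif2 (mean 0.10). In the adenosquamous minus solid, p75 minus p110 and high-Wnt minus low-Wnt contrasts, 0 of 12 were called by limma, beside 0%, 0.434% and 0.234% of all genes, and 2, 4 and 2 of them had an unadjusted p under 0.05, beside 1575, 3871 and 3462 of the 28576 genes. The median differences were -0.01, -0.06 and 0.15, beside -0.01, 0.00 and 0.02 over all genes. In the p75 minus p110 contrast, Pknox2 differed by -0.56 ± 0.19 (SE; limma adjusted p = 0.178) and Tgif2 differed by 1.25 ± 0.53 (SE; limma adjusted p = 0.299), neither of which passed.

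The genes that flank the Irx clusters in the RefSeq order were examined in the same way. Of the 3 protein-coding genes on each side of each cluster, 9 of 12 were tested, and 0 of 9 were called in any of the 3 contrasts, beside the same 0%, 0.434% and 0.234% of all genes. At an unadjusted limma p under 0.05 there were 0, 1 and 2 of 9. Next to IrxA, Ndufs6, a subunit of respiratory complex I, differed between high-Wnt and low-Wnt tumors by -0.89 ± 0.41 (SE; limma adjusted p = 0.403), Mrpl36 by -0.45 ± 0.39 (SE; limma adjusted p = 0.685) and Lpcat1 by -0.19 ± 0.13 (SE; limma adjusted p = 0.595). Next to IrxB, Fto differed by -0.23 (limma adjusted p = 0.902), Rpgrip1l by 0.64 (limma adjusted p = 0.397), Aktip by -0.42 (limma adjusted p = 0.53), Mmp2 by 0.37 (limma adjusted p = 0.78), Lpcat2 by 0.04 (limma adjusted p = 0.987) and Capns2 by 0.07 (limma adjusted p = 0.678). Irx2 differed by -2.57 in the same contrast, and Irx1, its neighbor in IrxA, by -0.43. Lpcat2 was at 4.76 in p110-121, where Irx5 was not above background, and at -0.06 or more in the other tumors.

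The strength of a tumor's signal and the dye were checked beside these values. The share of probes above background was related to Irx1, Irx4 and Irx5 with an r of 0.06, -0.00 and 0.13 (permutation p = 0.801, 0.999 and 0.613, adjusted 0.999 each) and a rho of 0.01, -0.02 and 0.11 (permutation p = 0.959, 0.95 and 0.683, adjusted 0.959 each) over 17 tumors. Without p110-121, r was -0.24, -0.06 and 0.01 (permutation p = 0.371, 0.816 and 0.972). For Irx2 it gave an r of 0.39 (permutation p = 0.127, adjusted 0.509) and a rho of 0.50 (permutation p = 0.0458, adjusted 0.183), and without p110-121 an r of 0.36 (permutation p = 0.171, adjusted 0.684) and a rho of 0.44 (permutation p = 0.0912, adjusted 0.365). For Irx2, r was -0.21 within p75 tumors (exact permutation p = 0.584, n = 9) and 0.72 within p110 tumors (exact permutation p = 0.0512, adjusted 0.205, n = 8), or 0.84 there without p110-121 (exact permutation p = 0.0323, adjusted 0.129, n = 7). The share was 18.3% to 47.9% in high-Wnt and 30.1% to 51.8% in low-Wnt tumors, and with the share as a covariate the high-Wnt minus low-Wnt difference of Irx2 was -2.41. Swapped arrays differed most for Irx1, whose ratio was 0.61 ± 0.72 (SD, n = 17) higher with the tumor in Cy5, with a largest gap of 2.26 in p110-416. For Irx2, Irx4 and Irx5 the mean gap was 0.32, -0.03 and -0.13, and the average over both dyes, which every value above uses, cancels a constant gap of a gene.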

How the data were processed

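The Irx genes, the lists and the comparisons were chosen with earlier results of these data known. Per the file headers, spot intensities of 45018 spots per array (mean signal and median local background) came from Agilent Feature Extraction on mm7 annotation, and the deposited log10 ratios, red over green, were background-subtracted and dye-normalized by that program and used in an alternative only. The log2 table deposited by the authors equaled the normexp and loess values of these intensities to within 4.98e-08. The authors had dissected the tumor cells, amplified their RNA in 2 rounds and listed the dyes of each array, from which every ratio was turned to tumor over reference.

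Here, intensities were corrected by normexp (offset 50) and normalized by loess within arrays in limma 3.58.1 (R 4.3.3), with controls and outlier spots (0.545%) at weight 0. Spots of a probe, then arrays of a tumor, were averaged, so each tumor was 1 replicate. Each gene took its brightest probe, named by RefSeq accession (55.7% of probes) or else by the array's gene name. All 28576 genes with a value in every tumor were tested with lmFit and eBayes over the 17 tumors. P-values were adjusted across these genes by the Benjamini-Hochberg method, and 0.05 was the threshold. Single members also had exact two-sided permutation tests. Correlations had permutation tests. Transgene and histology came from the labels, and the Wnt clusters from the study's figure, not the labels. Members in the high-Wnt against low-Wnt contrast were given no test because Irx2 had been chosen from it. Named genes were all Irx members, the 5 most and 3 least correlated genes of each well measured member, TALE genes that passed or were measured in all tumors, and the 3 nearest protein-coding genes on each side of the Irx clusters. Scripts were tested on simulated data. The number of tumors limits the precision. Alternatives changed the background correction, normalization, dyes, probes, filters, covariates, blocks and tumors, and 2 were added after the data were seen, namely the other Irx2 probe and the correlations and rankings without p110-121.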

Additional observations from a re-analysis of the deposited data

Results flagged for a closer look

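In 6 of 42 groups of Irx values, the highest or lowest tumor stood apart by Dixon's criterion, which chance alone meets in about 1 of 20 groups. The groups reuse the same tumors, and a single Irx1 value makes several of the flags, so this count cannot be set against that share. The Irx1 log2 ratio of p110-121, -1.23, stood apart among the p110 tumors and among the solid carcinomas (next value 4.20 in each) and among the medium-Wnt tumors (next value 4.63). Irx1 of p75-94, 3.34, stood apart among the p75 tumors, where the next value was 4.74. Irx5 of p75-129, 1.42, was below the next p75 tumor at 2.15. Irx3 of p75-90, -0.07, was below the next medium-Wnt tumor at 0.06, with Irx3 not above background in either.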

How the results depend on the processing

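Of 407 alternative values of Irx differences, 15 turned their direction. Some alternatives could not change a difference, such as leaving out a tumor of neither compared group or changing only the estimate of the spread. The high-Wnt minus low-Wnt values had no test, and the 3 values that came to pass the threshold were all p75 minus p110 differences. Irx4 (1.63 to 2.83) and Irx5 (0.47 to 1.499) stayed higher in adenosquamous than in solid carcinomas in 34 of 34 alternatives each, with limma adjusted p of 0.352 to 1 for Irx4. Each count includes alternatives that could not change the difference. The high-Wnt minus low-Wnt difference of Irx2, which chose the family, ran from -3.08 to -1.17. The adenosquamous minus solid difference of Irx1 turned to -0.726 among p75 tumors, -0.609 with scan year as a block and -0.157 in the tumor color without the reference, and ran from -0.515 to 0.674 when tumors were left out (-0.515 without p110-121, -0.072 without p75-101). That of Irx2 turned to 0.121 with Feature Extraction signals. The high-Wnt minus low-Wnt difference of Irx1 turned to 0.349 among p110 tumors and 0.048 with the tumor in Cy3. That of Irx5 turned to 0.053 with Feature Extraction signals and 0.297 in the tumor color, and ran from -0.364 to 0.079 when tumors were left out (0.079 without p110-225). The p75 minus p110 difference of Irx2 turned to -0.297 with arrays scaled to 1 spread, -0.103 in Cy3 and -0.118 with the share of probes above background as a covariate, and ran from -0.186 (without p110-121) to 0.568. That of Irx4 passed with median centering (2.02, limma adjusted p = 0.0233) and in the tumor color (1.72, limma adjusted p = 0.0465). Counts of genes called moved more. For adenosquamous minus solid, Feature Extraction signals gave 1 against 0, and leaving out a tumor 0 to 31 (31 without p75-101). For p75 minus p110, against 124, no background correction gave 206, Feature Extraction signals 223, median centering 1195, scaling 60, Cy5 217, Cy3 64, the tumor color 1470, trend and robust estimation 80, and leaving out a tumor 33 (without p75-94 or p75-216) to 1012 (without p110-314). For high-Wnt minus low-Wnt, against 67, no background correction, median centering and scaling gave 0 each, Feature Extraction signals 5, Cy5 7, Cy3 9, the tumor color 7, trend and robust estimation 16, the covariate 31, the scan year block 133, the 2 groups alone 150, and leaving out a tumor 7 (without p110-360) to 140 (without p75-216). The causes were not tested. No paired analysis was possible because the groups share no mouse numbers.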
